A study of Mus musculus with 6 samples.

Results

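Hematopoietic stem cells (HSC) were compared with multipotent progenitors of the MPP2 class in cells assigned to the G1 phase, within healthy bone marrow. The members were 372 MPP2 and 2120 HSC, together 2492 of the 12170 cells of the PBS libraries and of 16822 cells in all. They were chosen from the deposited cell table as G1 cells of clusters 0, 1 and 2 whose class is MPP2 or HSC. PBS 1 held 197 MPP2 and 1141 HSC, PBS 2 held 15 and 191, and PBS 3 held 160 and 788. All 3 libraries came from female C57BL/6J mice carrying CD45.1, aged 8 to 12 weeks, not conditioned, injected with PBS and sacrificed at day 21. Femur and tibia marrow was depleted of lineage-positive cells and sorted for CD45.1+ Lin- cKit+ Sca1+ cells (LSK), which were profiled with 10x Chromium V3 chemistry. The AML arm of the series, mice of the same strain, sex and age given CD45.2 C1498 leukemia cells and sorted in the same way, was used only to ask whether the contrast differed there. The sources do not say whether a library holds 1 mouse or a pool, so p-values measure the spread between these libraries.

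HSC are largely quiescent cells that maintain all blood lineages through self-renewal. MPP2 are multipotent progenitors of the same LSK gate that are biased toward megakaryocytes and red cells and divide more often. By surface phenotype the classical distinction rests on SLAM family proteins, with CD48 on MPP2 and absent from HSC. Here the class came from RNA: the authors scored each cell for 4 gene signatures and took the highest. Restricting both classes to G1 was used to set them side by side outside S phase and mitosis.

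The classes differed in how many of their cells were in G1. Of HSC in clusters 0 to 2, 85.2% in PBS 1 (exact 95% binomial interval 83.2 to 87.1), 88.8% in PBS 2 (83.8 to 92.7) and 85.9% in PBS 3 (83.5 to 88.1) were assigned to G1. The corresponding MPP2 shares were 15.6% (13.7 to 17.8), 10.1% (5.74 to 16.1) and 17.2% (14.8 to 19.8). The MPP2 shares lay below the HSC shares in every library, by a mean of 72.3 percentage points (SD 5.53, n = 3). The exact two-sided sign-flip permutation test gave p = 0.25, the smallest that 3 libraries allow. MPP2 cells in S phase made up 34.6 to 40.3% and those in G2M 46.5 to 49.8%. The G1 MPP2 described here were therefore a minority of their class, and the HSC the majority of theirs. Genes of mitosis such as Mki67, Birc5, Tpx2 and Aspm carry weight in the MPP2 score, so the gap is not independent of how the class was made.

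**Figure D1:**
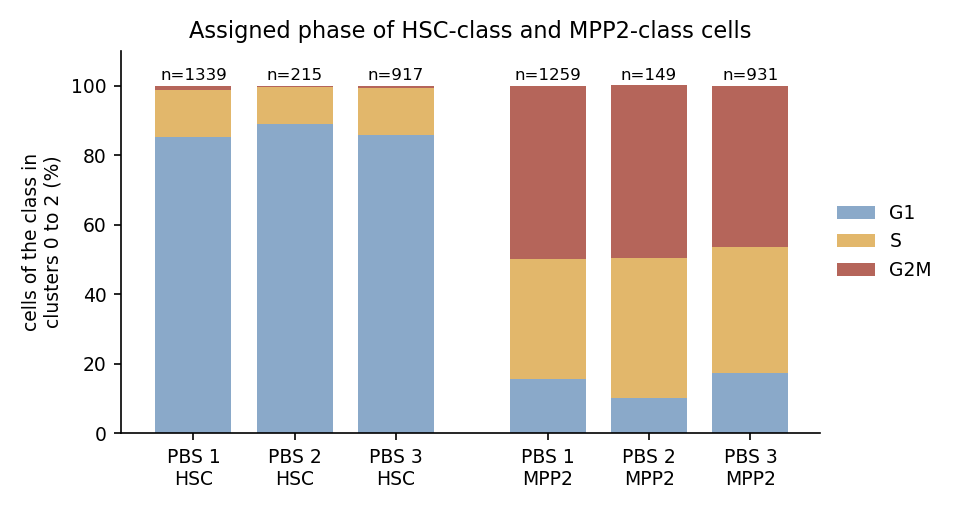
Share of cells (%) assigned to G1, S and G2M among the HSC-class and MPP2-class cells of clusters 0 to 2 in each PBS library, with the number of cells above each bar. G1 fills 85.2 to 88.8% of the HSC bars and 10.1 to 17.2% of the MPP2 bars.

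The S score helped set the phase, and cell cycle genes such as E2f1 and Cdc7 are in the MPP2 score, so score levels within G1 are a description. The median S score was -0.199, -0.231 and -0.184 in HSC of PBS 1, 2 and 3 and -0.171, -0.114 and -0.148 in MPP2. The median was higher in MPP2 in 3 of 3 libraries. Cluster 1 held 32, 46.7 and 38.1% of MPP2 and 18.8, 21.5 and 19.2% of HSC, with no overlap between the classes. Median UMIs per cell were 3026, 7048 and 3162.5 in HSC and 3129, 9257 and 3612.5 in MPP2, a mean log2 ratio of 0.21 ± 0.173 (SD, n = 3; exact sign-flip permutation p = 0.25). Cells of at least 2000 UMIs were also thinned to 2000 and the others left out, which kept 1103, 191 and 761 HSC and 188, 15 and 159 MPP2. In these cells MPP2 showed fewer genes per cell than HSC, with medians of 1079, 930 and 964 against 1095, 990 and 987. The share of UMIs from ribosomal protein genes was 27.9, 37.4 and 34% in MPP2 and 26.9, 35.4 and 32.8% in HSC.

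Many cells stood close to the border between classes. The gap between the best and the next score was under 0.05 in 73.6, 66.7 and 71.2% of MPP2 and in 46.3, 42.9 and 47% of HSC. For 62.6% of MPP2 the next best class was HSC, for 18.8% MPP3 and for 18.5% MPP4. A regression of each deposited score on the expression of 14368 genes over all 16822 cells recovered the genes that carry weight, 86 for HSC and 56 for MPP2. For the phase scores the same regression returned all 43 S phase and all 54 G2M genes of the Seurat lists. In total 364 genes entered any of the 4 class and 2 phase scores. Their differences are part of how the members were chosen and are given as description. Genes outside the scores were tested, although they were measured in the same cells from which the classes were cut.

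UMI counts were summed per library and class, and MPP2 was tested against HSC with edgeR and a term for the library. The sums were 3698246, 1394029 and 2674177 UMIs for HSC and 685580, 146059 and 639800 for MPP2. Levels are counts per 1000000 UMIs (CPM) on the TMM-normalized total, and a positive log2 fold change means higher in MPP2. The 15 MPP2 cells of PBS 2 were thin: 1 UMI of that sum is 7.69 CPM, and several low values below rest on a single UMI.

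Of 8353 genes tested, 712 were called at an adjusted p under 0.05 (8.52%), of which 532 were higher in MPP2 (6.37%) and 180 lower (2.15%). Outside the 6 scores 625 of 8134 genes were called (7.68%), 485 higher (5.96%) and 140 lower (1.72%). The CPM ranges of the classes did not overlap for 17.7% of all genes tested. Scaled to the plain library size, 280 genes were higher and 307 lower, since the median of all genes moved from 0.007 to -0.094 on the log2 scale, and the share of calls that were higher was 47.7% in place of 74.7%. The sizes of small shifts below are therefore relative to TMM. Without PBS 1 the test called 150 higher and 63 lower, and without PBS 3 it called 152 and 62. Both classes of a library come from the same sorted cells, so the libraries are paired in the test, and with no replicate block it called 11 and 4.

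Several regulators and surface proteins of the platelet and red cell lineages were higher in MPP2. Gata1 (ENSMUSG00000031162), the master transcription factor of erythroid and megakaryocyte development, was at 4.15, 3.67 and 1.15 CPM in HSC of PBS 1, 2 and 3 and at 34.7, 30.7 and 19.0 CPM in MPP2. All 3 MPP2 values lay above all HSC values, a 9.3-fold difference in the fit (log2 3.22). Gata1 reached the count filter of 9.62 CPM in 0 of 3 HSC sums and 3 of 3 MPP2 sums, so it was tested only because it is high in MPP2, and its difference is given as a description. With S and G2M scores under -0.15, the subset described further on, it was not tested. These levels rest on few molecules, with 17, 5 and 3 UMIs in HSC and 25, 4 and 11 in MPP2. A Gata1 UMI was seen in 9.64% of MPP2 cells of PBS 1 and in 1.31% of its HSC, and in 5.62% against 0.381% in PBS 3. Gata1 carried no weight in any score.

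Cd48 (ENSMUSG00000015355), the SLAM family protein that classically separates MPP2 from HSC, behaved in the same direction. It was at 43.7, 22 and 50.8 CPM in HSC and at 124, 99.9 and 119 CPM in MPP2, 2.72-fold higher (log2 1.45, SE 0.162, edgeR adjusted p = 7.12e-09). The classes did not overlap, and a Cd48 UMI was found in 28.4, 46.7 and 28.1% of MPP2 cells and in 12.1, 10.5 and 12.8% of HSC. Its log2 fold change lay between 1.36 and 1.63 when each library was left out in turn.

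Of 12 megakaryocyte and platelet genes tested outside the scores, 3 rose, with a median log2 fold change of 0.27 against 0.01 over all 8134 genes outside the scores. Gp9, a subunit of the platelet receptor for von Willebrand factor, was at 63.9, 50.6 and 58.5 CPM in HSC and at 124, 84.5 and 112 CPM in MPP2 (log2 0.93, SE 0.15, adjusted p = 1.62e-05), without overlap. In MPP2 of PBS 2, 1 cell held 6 of the 11 Gp9 UMIs, and without PBS 2 the log2 fold change was also 0.93. With S and G2M scores under -0.15 Gp9 had a log2 fold change of 0.57 and was not called. Itga2b, the integrin CD41 of the platelet fibrinogen receptor, was at 9.03, 8.81 and 15.8 CPM in HSC and at 13.9, 15.4 and 50.1 CPM in MPP2 (log2 1.24, adjusted p = 0.00827). Its classes overlapped and PBS 3 decided the call, since without PBS 3 the log2 fold change was 0.65 with an edgeR adjusted p of 0.755.

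Among the signature genes the largest value belonged to Pf4, platelet factor 4, which is part of the MPP2 score. It was at 56.6, 93.9 and 64.6 CPM in HSC and at 397, 622 and 517 CPM in MPP2. A Pf4 UMI was found in 39.1, 66.7 and 32.5% of MPP2 cells and in 14.7, 30.4 and 14.3% of HSC. Single MPP2 cells held large shares of them: 1 cell held 120 of the 286 Pf4 UMIs of PBS 1 (42%), 1 held 67 of 81 in PBS 2 (82.7%) and 1 held 80 of 299 in PBS 3 (26.8%). In HSC no cell held more than 8.59% of them. Other MPP2 signature genes were F2r, the thrombin receptor, at 18.3 to 26.5 CPM in HSC and 62.5 CPM or more in MPP2, and Zfpm1, the GATA1 cofactor FOG1, at 44.8 to 56.8 and 46.1 to 124 CPM. The median log2 fold change was 0.99 over 31 MPP2 signature genes and -0.95 over 63 HSC signature genes that passed the count filter, which is how the classes were made.

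**Figure D2:**
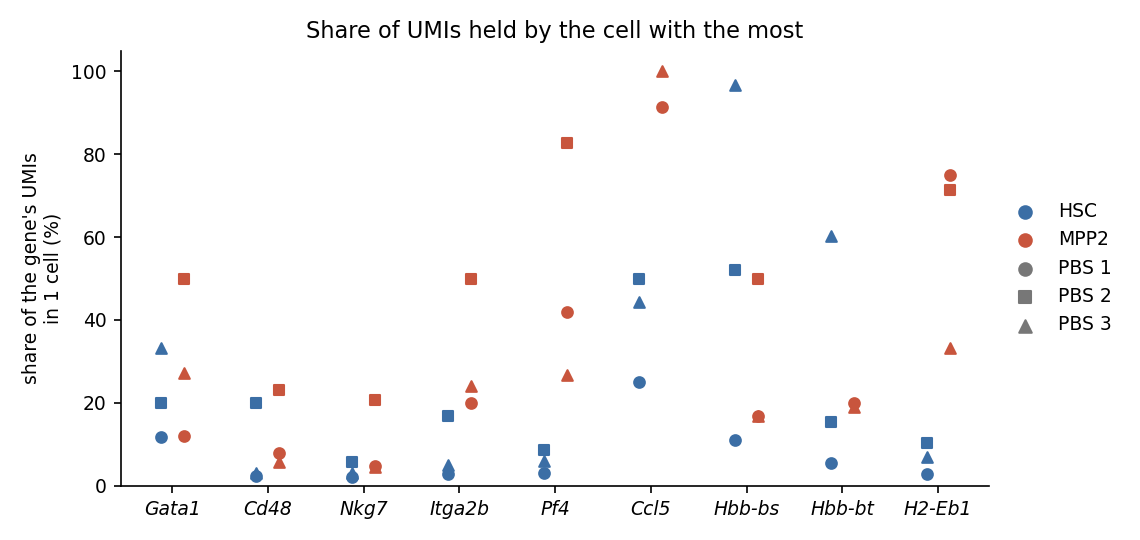
For 9 genes, the share (%) of the gene's UMIs in a library and class that sat in the single cell with the most; blue is HSC, red MPP2, and the marker shape gives the PBS library, with no point where a gene had no UMI. Cd48 and Nkg7 spread over many cells, whereas 1 cell held 96.7% of Hbb-bs UMIs in HSC of PBS 3 and 91.5% of Ccl5 UMIs in MPP2 of PBS 1.

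Erythroid genes did not move together. Of 12 outside the scores that passed the count filter, 2 rose and 2 fell, with a median log2 fold change of -0.17. The first rise was Gata1, which passed the filter through MPP2 alone. The other was Gfi1b, a transcriptional repressor of both lineages, which was not called without PBS 1 or without PBS 3. Car2, carbonic anhydrase 2 of early erythroid progenitors, was at 1080, 1100 and 1130 CPM in HSC and at 982, 1050 and 1010 CPM in MPP2 (log2 -0.13, SE 0.0706, adjusted p = 0.294). The 2 falls were hemoglobin beta genes. Hbb-bs was at 22.2, 18.3 and 618 CPM in HSC and at 16.7, 15.4 and 10.4 CPM in MPP2, and 1553 of its 1606 UMIs in HSC of PBS 3 came from 1 cell. Without PBS 3 its log2 fold change was -0.39 in place of -4.15, with an edgeR adjusted p of 0.827. For Hbb-bt 1 cell held 228 of 379 UMIs of HSC in PBS 3, but its log2 fold change was -1.48 and, without PBS 3, -2.53, called in both.

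Of 10 lymphoid priming genes outside the scores 0 were called by edgeR (median log2 fold change -0.08), where 7.68% of all genes outside the scores were called, which leaves a count of 0 near that share. Of 13 granulocyte and monocyte genes outside the scores, 3 rose. Plac8, a small protein of myeloid progenitors, was at 345, 268 and 462 CPM in HSC and at 477, 930 and 691 CPM in MPP2 (log2 0.78, adjusted p = 2.66e-06), without overlap, and its log2 fold change was 0.51 without PBS 2. Nkg7, a granule membrane protein of cytotoxic lymphocytes that is also transcribed in stem and progenitor cells, was at 69.5, 50.6 and 89.3 CPM in HSC and at 147, 184 and 197 CPM in MPP2 (log2 1.20, SE 0.136, adjusted p = 8.41e-09). Nkg7 UMIs were found in 33, 73.3 and 39.4% of MPP2 and 18.1, 22.5 and 19.4% of HSC, while the T cell receptor subunits Cd3e and Cd3g had 0 UMIs in all sums and Cd3d had 4, all in HSC. Mpo, a granule enzyme in the MPP3 score, was at 12.2, 9.54 and 18.5 CPM in HSC and at 20.8, 38.4 and 32.8 CPM in MPP2.

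From the 12 largest rises outside the scores, a set chosen after its values were seen, 3 genes of DNA replication are described. Dut, which keeps uracil out of DNA by hydrolysing dUTP, was at 134, 108 and 150 CPM in HSC and at 224, 384 and 289 CPM in MPP2 (log2 0.99, SE 0.121, adjusted p = 5.89e-08). Mcm3, a subunit of the replicative helicase, was at 32.0, 33.0 and 27.3 CPM in HSC and 59.7, 92.2 and 46.7 CPM in MPP2 (log2 0.95, adjusted p = 0.00178). Lig1, the ligase that seals Okazaki fragments, went from 42.4, 23.5 and 44.2 CPM to 76.4, 53.8 and 81.2 CPM (log2 0.89, adjusted p = 0.000686). That these 3 genes do not overlap between the classes was part of how the set was chosen. Mcm3 was not called without PBS 1, nor Lig1 without PBS 1 or PBS 3. Of the S phase score genes, which fixed the phase and are given as description, 32 passed the count filter with a median log2 fold change of 0.47.

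The promoters of Mcm5 and Dtl, both S phase score genes, are shown because the E2F family, whose classical site the letters below follow, governs replication genes at entry into S phase. Dtl, an adaptor of the ubiquitin ligase that degrades licensing factors in S phase, was at 24.2, 22.8 and 31.9 CPM in HSC and at 37.5, 30.7 and 63.9 CPM in MPP2. Mcm5, a further helicase subunit, was at 8.78, 13.9 and 8.46 CPM in HSC and 29.2, 23.1 and 32.8 CPM in MPP2. Both were chosen after their values were seen, for holding the letters TTTNNCGC on either strand in the 250 bases before a RefSeq start. Capitals mark the matches, overlapping ones in Mcm5 on both strands, and both windows are written 5′ to 3′ on the strand of the gene, from RefSeq on GRCm38.p6. The Mcm5 window is chr8:75109259-75109508 on the plus strand and the Dtl window chr1:191575545-191575794 on the minus strand.
Mcm5: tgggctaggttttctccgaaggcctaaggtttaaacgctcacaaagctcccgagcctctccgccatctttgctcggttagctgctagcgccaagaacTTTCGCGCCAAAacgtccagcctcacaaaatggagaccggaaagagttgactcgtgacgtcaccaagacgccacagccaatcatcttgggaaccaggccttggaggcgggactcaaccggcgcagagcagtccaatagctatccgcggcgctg
Dtl: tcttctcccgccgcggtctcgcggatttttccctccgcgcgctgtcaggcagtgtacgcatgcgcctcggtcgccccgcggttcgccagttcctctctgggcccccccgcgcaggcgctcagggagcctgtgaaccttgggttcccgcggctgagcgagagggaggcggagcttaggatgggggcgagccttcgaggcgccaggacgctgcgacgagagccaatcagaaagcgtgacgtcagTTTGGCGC
The letters TTTNNCGC occurred before 10 of the 31 S phase genes with a window (32.3%) and before 1335 of all 27025 genes (4.94%). They occurred before 48 of the 404 genes higher in MPP2 outside the scores that had a window (11.9%), before 8 of 114 lower genes (7.02%) and before 595 of all 6548 tested genes outside the scores (9.09%). A match is a spelling and not a bound site.

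The cyclin-dependent kinases of G1 were higher in MPP2 while few other members of their list were called. Cdk6, which drives exit from quiescence in HSC, was at 206, 128 and 222 CPM in HSC and at 390, 246 and 328 CPM in MPP2, 1.72-fold higher (log2 0.78, SE 0.102, adjusted p = 2.34e-07). The classes did not overlap, and the adjusted p was 0.0185 or lower with any 1 library left out. Cdk4, its paralog, was at 239, 255 and 212 CPM in HSC and at 328, 346 and 266 CPM in MPP2 (log2 0.41, adjusted p = 0.00463), and was no longer called without PBS 1 or without PBS 3. Of 20 genes in the list of G1 cyclins, kinases and inhibitors outside the scores, 3 rose and none fell by the edgeR test. Of all genes outside the scores 5.96% were called higher. DESeq2 called 1 rise in the list, and edgeR 1 without PBS 1 and 1 without PBS 3. The third rise, Tfdp1, went the other way in PBS 2, at 42.6 CPM in HSC and 30.7 CPM in MPP2. Cdkn1c, the inhibitor p57 of quiescent HSC, was at 22.9, 46.2 and 11.5 CPM in HSC and at 11.1, 7.69 and 8.64 CPM in MPP2, and missed the threshold (log2 -1.07, SE 0.381, adjusted p = 0.0712). Ccnd1 was under the count filter, with 36, 23 and 21 UMIs in HSC and 6, 1 and 4 in MPP2.

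**Figure D3:**
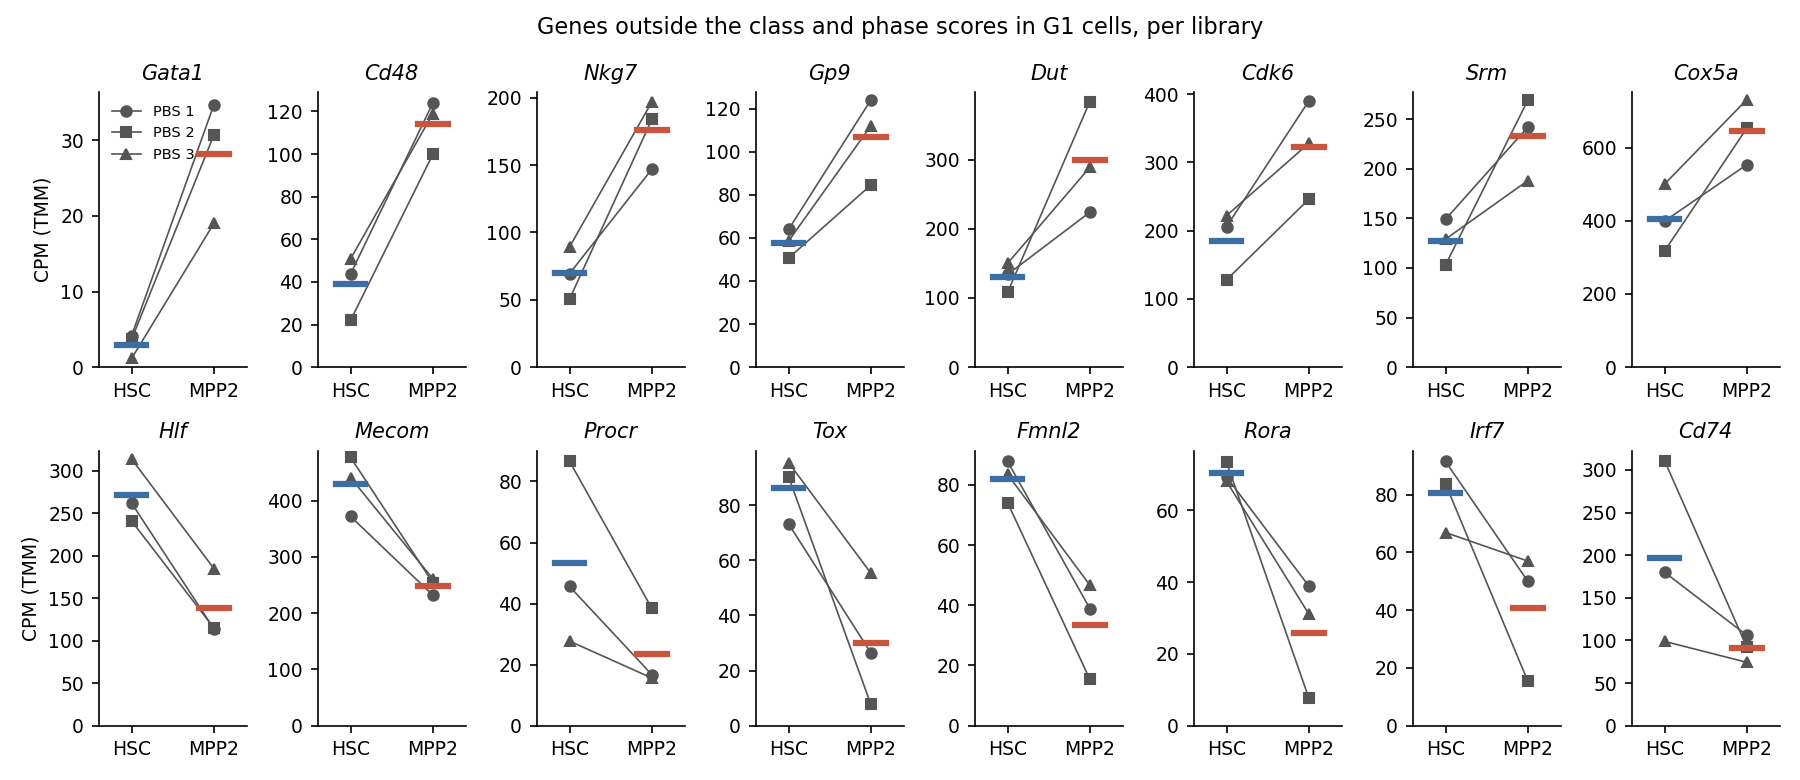
CPM on the TMM-normalized total of 16 genes outside the scores in HSC and MPP2 of each PBS library; lines join the 2 classes of 1 library, and the blue and red bars are the class means. The genes of the upper row rise from HSC to MPP2 in all 3 libraries and those of the lower row fall in all 3.

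Genes of protein synthesis and respiration gave the most calls of any list. Of 80 cytosolic ribosomal protein genes, 51 were higher in MPP2 and 0 lower, at a small size, with a median log2 fold change of 0.19. Of these 80 genes, 22 were called higher on the plain library size, 17 by DESeq2, 3 without PBS 1 and 14 without PBS 3. In the cells thinned to 2000 UMIs 3 were called, at a median of 0.07, beside 5 respiratory chain, 0 mitochondrial ribosomal, 1 proteasome and 4 MYC target genes of the lists that follow. Of 75 nuclear-encoded respiratory chain genes, 39 were higher and 0 lower (median 0.32), whereas of 12 mitochondrially encoded genes 0 were called by edgeR, DESeq2 or limma-voom (median -0.01). Of 36 MYC target and ribosome biogenesis genes 10 were higher (median 0.35), of 75 mitochondrial ribosomal protein genes 15 (median 0.27) and of 37 proteasome subunits 13 (median 0.33), with 0 lower in each. These counts shrank without PBS 1 and without PBS 3, to 12 and 14 for the respiratory chain, 2 and 2 for mitochondrial ribosomal proteins and 1 and 0 for the proteasome, against 7 and 8 for MYC targets. By DESeq2 they were 18, 2, 2 and 8. On the plain library size the medians of these lists were 0.08 for ribosomal proteins, 0.21 for the respiratory chain, 0.25 for MYC targets, 0.17 for mitochondrial ribosomal proteins and 0.22 for the proteasome, against -0.09 over all genes outside the scores.

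Single members showed the size of these shifts. Cox5a, a subunit of cytochrome c oxidase, was at 399, 317 and 500 CPM in HSC and at 553, 653 and 731 CPM in MPP2 (log2 0.60, SE 0.09, adjusted p = 3.62e-06), without overlap. Srm, the spermidine synthase, was at 149, 103 and 129 CPM in HSC and at 242, 269 and 188 CPM in MPP2 (log2 0.73, adjusted p = 1.87e-05). Nhp2, a protein of the small nucleolar particles that modify ribosomal RNA, went from 198, 162 and 222 CPM to 317, 323 and 385 CPM (log2 0.77, adjusted p = 1.87e-07). Myc itself was at 65.1, 55.0 and 63.1 CPM in HSC and at 66.7, 61.5 and 58.7 CPM in MPP2 (log2 -0.01, SE 0.177, adjusted p = 0.991). Hspe1, the mitochondrial co-chaperonin, was at 354, 309 and 399 CPM in HSC and 549, 584 and 651 CPM in MPP2 (log2 0.71, adjusted p = 6.63e-08). Among glycolysis genes 4 of 18 rose, with Ldha, lactate dehydrogenase A, at 270, 335 and 190 CPM in HSC and 390, 646 and 294 CPM in MPP2 (log2 0.65, adjusted p = 3.13e-06). The list median was 0.04, and -0.06 on the plain library size. Of 23 regulators of DNA methylation and chromatin 7 rose and 1 fell (median -0.03), where DESeq2 called 1 rise and edgeR 1 without PBS 1, 2 without PBS 3 and 2 on the plain library size. Among the rises was Hmgb3, a chromatin protein of immature cells, from 142, 148 and 129 CPM to 250, 307 and 211 CPM (log2 0.81, adjusted p = 5.36e-07).

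On the HSC side, 4 of 22 stem cell transcription factors outside the scores were lower in MPP2 and 0 higher, with a median log2 fold change of -0.25, 6 of 22 positive, and 2 called by DESeq2. Hlf (ENSMUSG00000003949), a bZIP factor largely restricted to stem cells within the marrow, was at 262, 241 and 314 CPM in HSC and at 114, 115 and 185 CPM in MPP2, 1.97-fold lower (log2 -0.98, SE 0.12, adjusted p = 5.56e-08). Mecom (ENSMUSG00000027684), which encodes EVI1, was at 372, 477 and 441 CPM in HSC and at 232, 254 and 261 CPM in MPP2, 1.68-fold lower (log2 -0.75, SE 0.1, adjusted p = 3.92e-07). Neither gene overlapped between classes or lost its call with any 1 library left out. Nkx2-3, a homeobox factor, went from 68.5, 75.6 and 40.0 CPM to 30.6, 7.69 and 17.3 CPM (log2 -1.33, adjusted p = 0.000152). Gata2, in the same list, was at 42.2, 45.5 and 36.9 CPM in HSC and at 58.4, 53.8 and 53.6 CPM in MPP2 and was not called (log2 0.47, SE 0.199, adjusted p = 0.149). Mllt3, a regulator of stem cell maintenance in the HSC score, was at 220 to 273 CPM in HSC and 30.7 to 112 CPM in MPP2.

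Among genes for surface proteins of the stem cell gate, Procr and Ly6a were lower in MPP2. Procr, the endothelial protein C receptor used to purify HSC, was at 45.6, 86.6 and 27.7 CPM in HSC and at 16.7, 38.4 and 15.6 CPM in MPP2 (log2 -1.20, SE 0.272, adjusted p = 0.002). It was lower in each of 3 libraries although the ranges overlapped, and without PBS 1 it was not called (edgeR adjusted p = 0.198). Ly6a, which encodes Sca1, was at 152, 344 and 177 CPM in HSC and at 110, 184 and 116 CPM in MPP2 (log2 -0.61, adjusted p = 0.000759), with overlapping ranges. The RNA of the sorting marker thus differed within the sorted gate, and the level of its protein is not in these data. Kit was at 124, 132 and 147 CPM in HSC and at 107, 84.5 and 117 CPM in MPP2 and was not called (log2 -0.30, SE 0.136, adjusted p = 0.176). Cd34 was at 176 to 208 CPM in HSC and 149 to 200 CPM in MPP2 (log2 -0.20, adjusted p = 0.36). Slamf1, which encodes CD150 and is in the HSC score, had 7.69 to 12.5 CPM in HSC and 3.46 to 15.4 CPM in MPP2.

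Of the 12 largest falls outside the scores, again chosen after their values were seen, 4 more are described. Tox, a nuclear HMG-box factor, was at 73.2, 90.3 and 95.4 CPM in HSC and at 26.4, 7.69 and 55.3 CPM in MPP2 (log2 -1.22, adjusted p = 4.7e-05). Rora, a nuclear receptor, went from 69.3, 73.4 and 68.1 CPM to 38.9, 7.69 and 31.1 CPM (log2 -1.08, adjusted p = 0.000458). Fmnl2, a formin of the actin cytoskeleton, went from 87.8, 74.1 and 83.5 CPM to 38.9, 15.4 and 46.7 CPM (log2 -1.09, adjusted p = 8.71e-05). Non-overlap was again part of the choice, and the PBS 2 values of Tox and Rora in MPP2 were 1 UMI each. Alcam, an adhesion protein, went from 41.0, 47.0 and 57.7 CPM to 18.1, 30.7 and 27.6 CPM (log2 -1.06, adjusted p = 0.00325), and was not called without PBS 1 or without PBS 3.

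Most interferon-stimulated genes and all immediate early genes that were called were lower in MPP2. Of 24 interferon-stimulated genes 4 fell and 1 rose, with a median of -0.28, and 1 fell without PBS 1 or by DESeq2. Irf7, the interferon-induced transcription factor that amplifies the response, was at 91.5, 83.7 and 66.9 CPM in HSC and at 50, 15.4 and 57.0 CPM in MPP2 (log2 -0.71, SE 0.194, adjusted p = 0.012). Ifitm1, a membrane protein that restricts virus entry, was at 1030, 1520 and 1390 CPM in HSC and at 759, 776 and 1170 CPM in MPP2 (log2 -0.46, adjusted p = 4.51e-05). The Irf7 values did not overlap and those of Ifitm1 did, and Irf7 was not called without PBS 1 (edgeR adjusted p = 0.331). The single rise, Ifi27l2a, rested on PBS 2, where 1 of 15 MPP2 cells held 18 of 24 UMIs.

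Of 19 immediate early genes 7 fell and 0 rose (median -0.36), but 0 were called without PBS 1 or by DESeq2 and 3 without PBS 3. Fos was at 732, 410 and 181 CPM in HSC and at 536, 330 and 143 CPM in MPP2 (log2 -0.40, SE 0.0985, adjusted p = 0.00507). The libraries differed more from each other than the classes did within a library, and without PBS 1 or PBS 3 Fos was not called. Of 24 MHC and antigen processing genes 3 fell and 2 rose (median 0.04). On the plain library size 4 fell and 0 rose. By DESeq2, without PBS 1 and without PBS 3, 1 fell and 0 rose in each. Cd74, the invariant chain of MHC class II, was at 180, 311 and 98.9 CPM in HSC and at 106, 92.2 and 74.3 CPM in MPP2 (log2 -0.81, adjusted p = 0.000117). Psmb8, a proteasome subunit of antigen processing, was at 640, 600 and 629 CPM in HSC and 703, 945 and 786 CPM in MPP2 (log2 0.32, adjusted p = 0.00878). Psmb8 was not called without PBS 1 or without PBS 3, and its log2 fold change was 0.20 without PBS 2.

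The same comparison was made in the G1 cells farthest from division, with S and G2M scores both under -0.15, an alternative added after the data were seen. It kept 94, 5 and 62 MPP2 and 687, 154 and 444 HSC. There 12 genes were higher and 12 lower, of which 4 and 3 lay outside the scores. Those higher were Cd48 (log2 1.29, edgeR adjusted p = 0.00323), Nkg7 (1.08, 0.00244), Slc22a3 (1.30, 0.0129) and Yae1d1 (1.12, 0.0129). Those lower were Mecom (-0.80, 0.0212), Itsn1 (-1.23, 0.0194) and Ern1 (-1.07, 0.0129), and Yae1d1, Itsn1 and Ern1 are named for this count alone. Yae1d1 was not called in all G1 cells. Of the 603 genes outside the scores that were called in all G1 cells and tested here, 553 kept their direction, with a median size of 0.27 on the log2 scale against 0.48 over all such calls.

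List medians in these cells are set beside those in all G1 cells. Over the same 10 HSC class markers outside the scores the median was -0.64 in all G1 cells and -0.53 here, and over 22 stem cell transcription factors it was -0.25 and -0.21. Over the 80 ribosomal protein genes it was 0.19 and -0.04, and 30 of 80 log2 fold changes were positive in place of 78. Over the 75 respiratory chain genes it was 0.32 and 0.12, over 34 MYC target genes 0.37 and 0.18, and over all 6952 genes in both fits 0.02 and -0.04. The median went from 0.20 to 0.02 over 10 megakaryocyte and platelet genes, from 0.45 to 0.12 over 5 MPP2 class markers and from -0.29 to -0.11 over 22 interferon-stimulated genes. Of the replication genes, Dut had a log2 fold change of 0.42, Mcm3 of 0.19 and Lig1 of -0.20, none of them called in edgeR. Cdk6 had 0.67 and an adjusted p of 0.0805. The differences between the fits were not tested, and the smaller number of cells also lowers the number of calls.

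**Figure D4:**
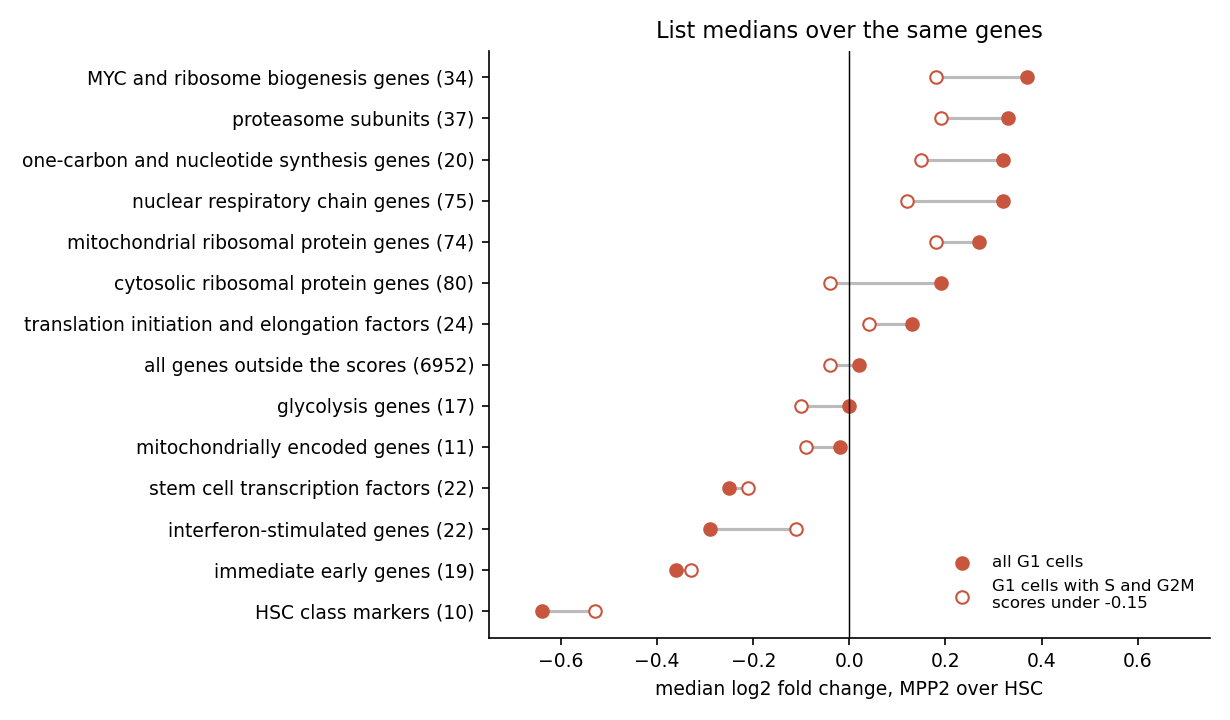
Median log2 fold change, MPP2 over HSC, of gene lists outside the scores in all G1 cells (filled) and in G1 cells with S and G2M scores under -0.15 (open), over the genes tested in both, whose number is in parentheses. HSC class markers stay at -0.64 and -0.53, while ribosomal protein genes go from 0.19 to -0.04.

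Summed markers of mature cells are given for both classes. The summed level of 14 neutrophil markers was 4.49 to 9.33 CPM in HSC and 0 to 8.75 CPM in MPP2, and that of 13 mast cell and basophil markers 5.14 to 8.23 and 14.1 to 20.5 CPM. Of the 15 T and NK cell markers 7 had 0 UMIs, and the list summed to 65.3 to 99.5 CPM in HSC and 164 to 188 CPM in MPP2, with Nkg7 as the 1 member tested. The 15 B and plasma cell markers summed to 132 to 277 CPM in HSC and 185 to 296 CPM in MPP2, with 0 of 4 tested called. The 14 monocyte and macrophage markers summed to 141 to 217 CPM in HSC and 116 to 281 CPM in MPP2, with 0 of 2 tested called. Ccl5, a chemokine of T and NK cells outside these lists, was at 14.6, 2.94 and 10.4 CPM in HSC and at 131, 0 and 10.4 CPM in MPP2 and was called higher (log2 2.48, SE 0.305, edgeR adjusted p = 5.89e-08). In PBS 1, 1 MPP2 cell held 86 of its 94 UMIs, and without PBS 1 it was under the count filter. The 12 mature erythroid markers summed to 172 to 1240 CPM in HSC and 61.6 to 141 CPM in MPP2, and the high end was the PBS 3 sum that holds the single hemoglobin-rich cell. The part of such cells in the other results was not tested. Leaving out the 5% of cells with the highest doublet scores gave 517 higher and 186 lower genes. Of the member cells, 9 carried a barcode that occurs in more than 1 library.

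The contrast was also read in AML 3, a library of another treatment that had no part in the test. It held 116 G1 MPP2 and 453 G1 HSC, whereas AML 1 held 16 and 13, too few to be used, and the cell table holds none of AML 2. Of the 484 genes outside the scores called higher in PBS with UMIs in AML 3, 472 had a higher level in MPP2 there, and of 140 called lower 130 had a lower level. Of 7431 genes not called, 3495 were higher and 3936 lower. Levels for these counts were normalized by TMM over the PBS and AML 3 sums together. The class score that chose the cells was the same in both arms, and the library has no replicate, so that these counts are a description. Gata1 was at 2.19 CPM in HSC and 17.5 CPM in MPP2 of AML 3, Cd48 at 57.5 and 131 CPM, Hlf at 331 and 128 CPM and Mecom at 501 and 198 CPM, here on the plain library total.

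**Figure D5:**
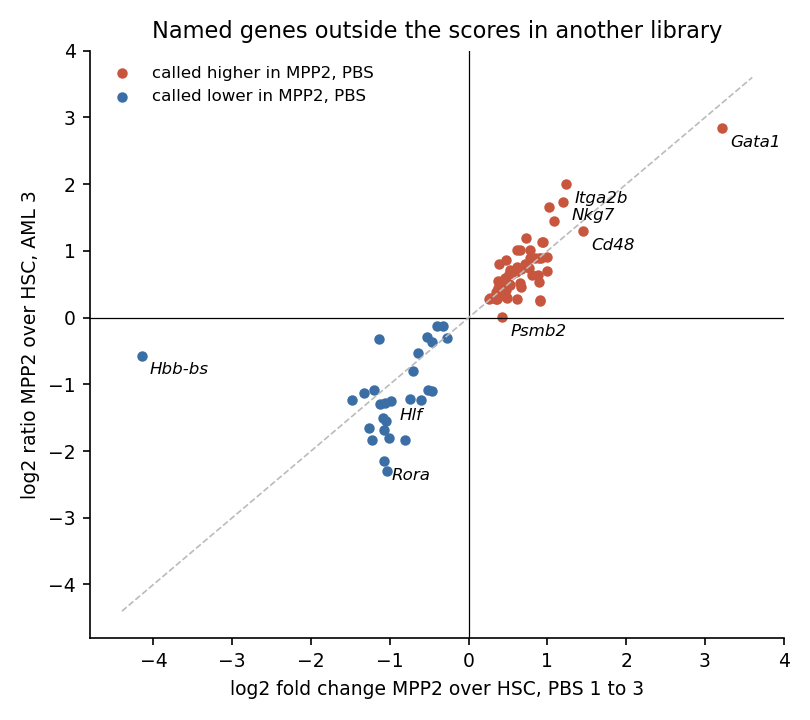
Named genes outside the scores that were called in PBS. The x axis is the log2 fold change in PBS and the y axis the log2 ratio of MPP2 to HSC in AML 3. That ratio used CPM normalized by TMM over the PBS and AML 3 sums together. The dashed line marks equality, and red genes were called higher and blue genes lower in MPP2. Hbb-bs lies far from the line, at -4.15 in PBS and -0.57 in AML 3.

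Whether the MPP2 to HSC contrast differed between AML and PBS was tested with AML 3 as the single AML library, assuming that it varies as the PBS libraries do. Of 8388 genes, 2 were called (0.0238%) by edgeR and 388 passed 0.05 before adjustment. DESeq2 and limma-voom called 0, where 28 and 314 genes passed 0.05 unadjusted. With PBS 1 left out edgeR called 0 genes and 203 passed unadjusted, and with PBS 2 left out it called 12. The calls were Ccl5, with a log2 difference of -3.25, and Pf4, with 1.00, which is in the MPP2 score and is given as a description. Inafm1, next in order of p, had a log2 difference of -2.93 and an adjusted p of 0.0806.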

How the data were processed

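Cells had been sorted and sequenced by the authors, and UMI counts per gene and cell were deposited as filtered matrices made with Cell Ranger 7.0.1, per the labels on GRCm38 (mm10), with an annotation release not given in the sources used here. The cell table was made by the authors in Seurat 4.3.0 under R 4.2.2. It gives, as deposited, the percent of UMIs from mitochondrial and ribosomal protein genes, the phase and class score values, the cluster and the class of each kept cell. UMI totals and gene numbers of every table cell equalled those of its matrix column. Matrix columns outside the table were not used. The authors' treatment of doublets is not stated in those sources.

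Raw counts were summed per library and class and tested with the edgeR 4.0.16 quasi-likelihood test in R 4.3.3 (TMM, filterByExpr, terms for library and class). P-values were adjusted by the Benjamini-Hochberg method over all genes tested, and calls used 0.05. The standard error is the log2 fold change divided by the root of F. Pairing by library rests on both classes coming from 1 library. DESeq2 1.42.0, limma 3.58.1, other scalings and cell filters were alternatives. On simulated data for the G1 comparison, run on 8159 genes, 48 of 50 genes changed by a log2 of -2 and 50 of 50 changed by 2 were recovered, against 26 and 38 of 50 at -1 and 1, with 1 false call. In that simulation changes were put only in genes with higher counts, and no outlying cells were simulated. Recovery of low genes was therefore not tested. Intervals cover counting error only. Score genes were found by ridge regression among genes seen in at least 30 cells. Thinning, shares and doublet scores used Python 3.11.15, scanpy 1.11.5 and scipy 1.17.1.

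The members, gene lists and named genes were chosen with earlier results of these data known. Named were a panel of stem and progenitor genes, the 12 largest non-overlapping rises and falls with a mean log2 CPM of at least 5, up to 4 called genes of lowest p per list (the 2 most abundant where fewer than 2 were called) and the 3 lowest p of the AML difference. From these a selection is described, and 1 gene is not reported here.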

Additional observations from a re-analysis of the deposited data

Results flagged for a closer look

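The MPP2 to HSC contrast of 2 genes differed between AML 3 and the PBS libraries by the edgeR test of the difference itself, with AML 3 as the single AML library, so that the test holds no spread between AML libraries. DESeq2 and limma-voom called neither. Ccl5, a chemokine of T and NK cells, had a log2 difference of -3.25 (SE 0.488, adjusted p = 0.000216). On totals normalized over the PBS and AML 3 sums together, it was at 15, 2.99 and 10.8 CPM in HSC and 132, 0 and 10.5 CPM in MPP2 of PBS 1, 2 and 3, and at 69 and 40.5 CPM in HSC and MPP2 of AML 3. In MPP2 of PBS 1, 1 cell held 86 of the 94 Ccl5 UMIs (91.5%), and 2 of 197 cells had any.

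Pf4 is part of the MPP2 score that chose the cells, so its value is a description: a log2 difference of 1.00, from 58, 95.8 and 67.2 CPM in HSC and 402, 627 and 523 CPM in MPP2 of the PBS libraries to 67 and 962 CPM in AML 3. In MPP2 of AML 3, 1 cell held 175 of 546 Pf4 UMIs (32.1%). With PBS 1 left out neither gene was called, and the Ccl5 difference was -0.66. Pf4 also lost its call with PBS 3 left out (log2 difference 1.09) and with DESeq2 size factors (0.98).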

How the results depend on the processing

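Against 532 higher and 180 lower genes, the counts were 280 and 307 on the library size only, 349 and 244 with no filter on low counts, 166 and 22 by DESeq2, 11 and 4 with no replicate block, 95 and 58 with cells thinned to 2000 UMIs, 120 and 67 with equal numbers of cells, 311 and 207 with a class margin of at least 0.05, and 2912 and 2402 in cells of every phase. Added after the data were seen, cluster 0 of PBS 1 and 3 gave 295 and 156, cluster 1 of those libraries 43 and 10, and S and G2M scores under -0.15 gave 12 and 12. Leaving out 1 library gave 150 to 537 higher and 62 to 214 lower. The planned fit within clusters over all 3 libraries was not run, since PBS 2 has 7, 7 and 1 MPP2 cells there. The AML difference, 2 genes, became 1 with DESeq2 size factors, 5 with no filter, 0 by DESeq2, limma-voom or thinned cells, and 0 to 12 with 1 library left out. Among genes given with values in the report, signs turned for Lig1 (-0.20) and Gata2 (-0.01) with scores under -0.15, for Cd34 (0.42), Gata2 (-0.40) and Inafm1 (-0.29) in every phase, for Hbb-bt in cluster 1 (0.13), and in cluster 0 for Yae1d1 (-0.43), Slamf1 (0.14) and Myc (0.26). Myc, -0.01 in the test reported, was also at 0.00 by DESeq2, 0.01 by limma-voom and without the top doublet scores, 0.03 with no replicate block, -0.06 to 0.06 with 1 library left out, 0.07 when thinned and 0.16 with the class margin, and Slamf1 at 0.01 by limma-voom and -0.57 to 0.13 with 1 library left out. The causes were not tested. In the 15 MPP2 cells of PBS 2, 1 UMI is 7.69 CPM, which limits low genes.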
